A study of Arabidopsis thaliana with 18 samples.

Results

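The comparison is between the arrays titled Rep2 and those titled Rep1 in a study of Arabidopsis thaliana, ecotype Col-0, in which 18 Affymetrix ATH1 arrays were hybridised with biotin-labelled target from total RNA. The titles number the arrays 1 to 18 in triplets, and each triplet holds 1 array each of Rep1, Rep2 and Rep3. The 12 arrays compared were the 6 of Rep1 (title numbers 1, 4, 7, 10, 13 and 16) and the 6 of Rep2 (2, 5, 8, 11, 14 and 17), paired within their triplet. In the first 3 pairs the treatment of both arrays was 0.02% silwet, a surfactant, and in the last 3 it was 0.30 mM SA dissolved in 0.02% silwet, so silwet was common to every array and treatment was balanced between the 2 groups. The labels give no tissue, plant age, harvest time or planting for any array, and they do not say what separates the triplets or whether replicate numbers mark separate plants. The p-values therefore measure the spread between these arrays, which may be technical. They also treat the pairs as independent, which was not tested. The titles of all 6 Rep1 arrays carry a code ending in the letter b and those of the 6 Rep2 arrays do not; what the letter marks is not given, and it cannot be told apart from the replicate number.

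Plant cells hold a second, bacterial-type set of genes in the plastid genome. It encodes core subunits of the photosystems, the cytochrome b6f complex, the plastid ATP synthase and the NDH complex, the large subunit of RuBisCO, and parts of the plastid's own ribosome and RNA polymerase. These genes are transcribed in long clusters by a plastid-encoded and a nuclear-encoded polymerase, and the transcripts are cut, spliced and edited afterwards. Most other chloroplast proteins come from nuclear genes.

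Of 4 named genes that differed between the replicate numbers whichever pair of arrays was left out, 3 belonged to the plastid genome. That genome holds 66 of the 7356 tested probe sets that name 1 gene. Besides these 4 genes, 1 probe set unnamed here, lower in Rep2, also passed each time. Transcripts of petL, atpI and ycf3 were more than 2-fold higher in Rep2, that is, by more than 1 unit on the log2 scale, in mean difference and in each of the 6 pairs except the pair of arrays 4 and 5 for ycf3. The nuclear gene AT2G35820 was lower in Rep2 in every pair. Among 13652 probe sets tested with limma on the 6 pair differences, 163 were higher in Rep2 (1.19%) and 256 were lower (1.88%) at a Benjamini-Hochberg adjusted p under 0.05. Without the pair of arrays 10 and 11 the counts were 229 higher (1.68%) and 365 lower (2.67%), of which 137 and 197 were also called with all 6 pairs. The direction was the same in all 6 pairs for 949 probe sets that were higher (6.95%) and 984 that were lower (7.21%).

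Most of these calls needed nearly all pairs. Leaving out the pair of arrays 1 and 2 left 7 probe sets higher and 12 lower. Without arrays 4 and 5 there were 3 and 2, without arrays 7 and 8 there were 6 and 21, without arrays 13 and 14 there were 39 and 95, and without arrays 16 and 17 there were 7 and 5. Across all probe sets, 3 higher and 2 lower ones passed with all pairs and with any 1 pair left out. They were petL, atpI and ycf3 on the higher side, and AT2G35820 and a probe set unnamed here on the lower side. Every other gene described below as past the threshold passed only with some sets of pairs and lost the call when at least 1 pair was left out or added back.

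Array 10, an SA array of Rep1, stood apart from the other arrays. Its log2 signal at the 5′ actin control was 3.80, against 9.27 to 10.16 on the other 11 arrays. Its actin 3′ to 5′ log2 ratio was 6.85, against 0.45 to 0.58 on the other Rep1 arrays and 0.62 to 1.51 on the Rep2 arrays, and its GAPDH ratio was 3.36, against at most 0.47 on the other Rep1 arrays and 1.31 on the Rep2 arrays. Its ubiquitin ratio was 0.93, against 0.54 to 0.68 on the other Rep1 arrays but within the 0.41 to 1.06 of the Rep2 arrays. Its actin middle to 5′ log2 ratio was 6.4, nearly as high as its 3′ to 5′ ratio. The controls of array 10 thus did not move alike, and the reason was not tested. A high 3′ to 5′ ratio is commonly read as a sign of shortened RNA or incomplete reverse transcription. The counts, and each call that this pair decides, are therefore also given without arrays 10 and 11.

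**Figure D1:**
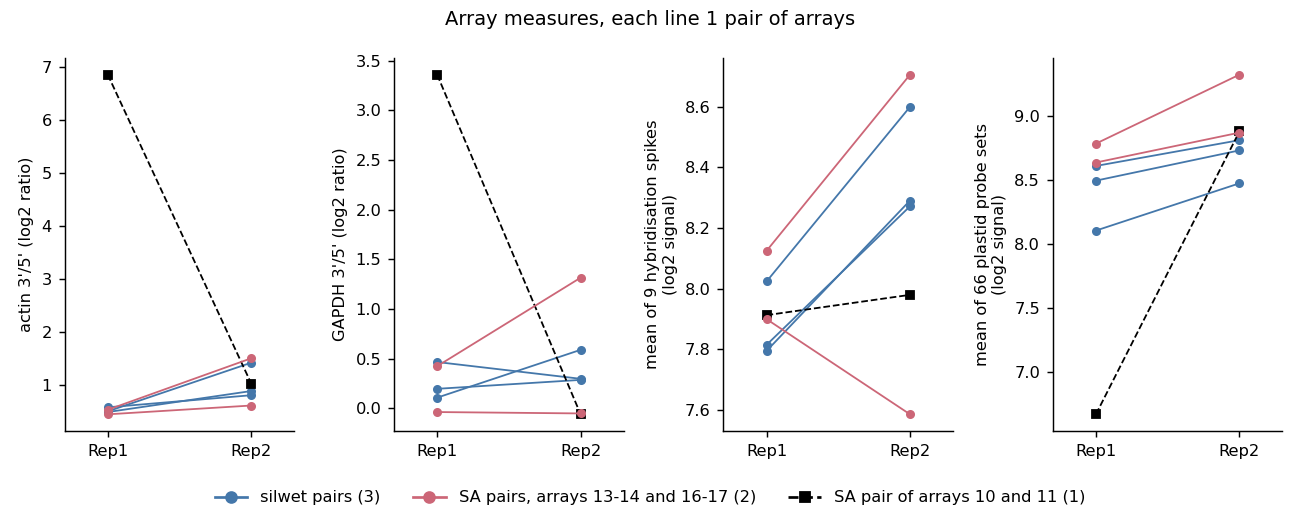
Control measures by array, with Rep1 on the left and Rep2 on the right of each panel and 1 line per pair: the log2 actin and GAPDH 3′ to 5′ ratios, the mean log2 signal of 9 hybridisation spikes and the mean floored log2 signal of 66 plastid probe sets. Array 10 lies far from the others in the actin, GAPDH and plastid panels, and the actin ratio is higher in Rep2 in each of the other 5 pairs.

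In the other 5 pairs the actin 3′ to 5′ ratio was higher in Rep2 each time, by 0.17 to 0.97, with a mean of 0.54 ± 0.38 (SD, n = 5; exact two-sided sign-flip permutation p = 0.0625, the smallest that 5 pairs allow). With all 6 pairs the mean difference was -0.52 ± 2.62 (SD, n = 6; exact permutation p = 1.0). The GAPDH ratio was higher in Rep2 in 3 of 6 pairs and the ubiquitin ratio in 4 of 6. Hybridisation spikes, RNAs added in fixed amounts before hybridisation, were higher in Rep2 in 5 of 6 pairs, by 0.31 ± 0.36 (SD, n = 6; exact permutation p = 0.0938, and 0.562 after adjustment over 6 array measures). The 12 labelling-spike probe sets had mean log2 signals of 0.40 in Rep1 and 0.44 in Rep2, at the bottom of the scale, and the array medians were 5.12 and 5.11. The actin ratio and the spikes thus moved with the replicate number in most pairs, and their part in the gene differences was not tested.

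The pairs differed in how far apart their arrays were. The share of tested probe sets that differed by more than 2-fold ran from 1.84% between arrays 13 and 14 to 7.32% between arrays 1 and 2. Across the 13652 probe sets the differences of any 2 pairs correlated at -0.0191 to 0.624, with a median of 0.185, as a description of probe sets that share arrays and processing. The pair of arrays 7 and 8 (silwet) and that of arrays 16 and 17 (SA) were the most alike, followed by the pairs of arrays 1 and 2 and of arrays 4 and 5 at 0.49. The highest value was thus between pairs of different treatment. In number order, the title code of each silwet array is followed by that of an SA array. The pairs matched in this way correlated at 0.624, at 0.443 (arrays 4 and 5 with arrays 13 and 14) and at 0.211 (arrays 1 and 2 with arrays 10 and 11). What the codes mark is not given, and whether the pairs are independent was not tested. The SEs and p-values treat the pairs as independent, so they may be too small. When the 3 SA pairs were compared with the 3 silwet pairs in the same fit, limma called 0 probe sets. Of the 13652, 188 had an unadjusted p under 0.05, which is a smaller share than 0.05 and so no excess of small p-values. With 3 pairs on each side, differences between the treatments could have been missed.

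Of the plastid genome, 66 genes had a tested probe set. With 6 pairs, 11 of the 66 were called higher in Rep2 and 0 lower, beside 1.19% and 1.88% of all probe sets; at an unadjusted p under 0.05 there were 26 higher and 1 lower, beside 10.6% and 11.7% of all probe sets. Without arrays 10 and 11, 16 were higher and 3 lower, beside 1.68% and 2.67%, and all 11 of the former were among the 16. The median difference over the 66 genes was 0.52 with 6 pairs and 0.15 with 5, where the median over all probe sets was 0.00091 and -0.0009. In these whole RNA extracts, fewer cells of a type and less RNA per cell cannot be told apart, and the same holds for fewer plastids.

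Array 10 had the lowest signal of the 12 arrays for 47 of the 66 plastid genes. The pair of arrays 10 and 11 differed by more than 1 log2 unit in 54 of them and by more than 2 in 33. Its median over the 66 was 2.00, against 0.034, 0.11, 0.21, 0.18 and 0.41 in the pairs of arrays 1 and 2, 4 and 5, 7 and 8, 13 and 14, and 16 and 17. For psbH, a small photosystem II subunit, array 10 read 4.28 and the other Rep1 arrays 9.23 to 9.86, while Rep2 ran from 9.44 to 10.41. Its mean difference was 1.07 with 6 pairs and 0.25 with 5, and neither passed (adjusted p = 0.423 and 0.164, limma). The same was seen for ycf4, a photosystem I assembly factor, which differed by 5.19 between arrays 10 and 11 and by 0.02 on average in the other pairs. For psbC, an inner antenna protein of photosystem II, the pair differed by 5.42 and the other 5 by 0.97 on average (adjusted p = 0.118, limma).

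**Figure D2:**
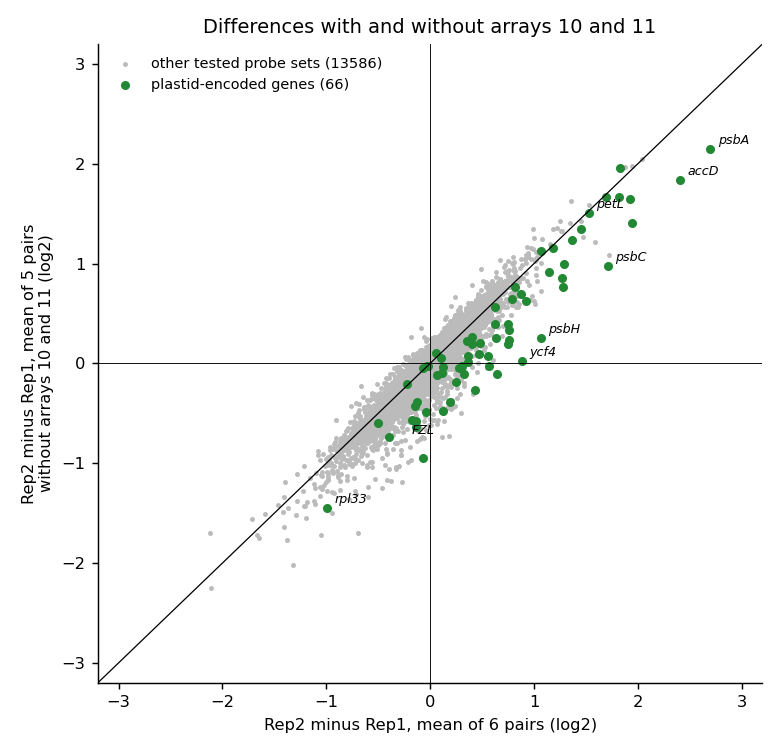
Mean Rep2 minus Rep1 difference of each tested probe set with 6 pairs (horizontal, log2) and with 5 pairs after arrays 10 and 11 were left out (vertical, log2), with the 66 plastid genes in green and the line of equality. Many plastid genes lie below the line, such as psbH at 1.07 and 0.25, whereas petL lies on it at 1.53 and 1.50.

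The gene with the smallest p was petL, which encodes a small subunit of the cytochrome b6f complex, the electron carrier between the photosystems. Its log2 signal was 7.85 at the lowest, 8.05 at the median and 8.72 at the highest in Rep1, and 9.36, 9.54 and 10.40 in Rep2. The groups did not overlap, and array 10, at 7.90, lay within the Rep1 range. The mean difference was 1.53 ± 0.095 (SE, n = 6 pairs; adjusted p = 0.000189, limma), with single pairs at 1.13 to 1.68, and 1.50 without arrays 10 and 11. In Rep3 it averaged 9.84 ± 0.33 (SD, n = 6). Here and below, lack of overlap between the groups is a description only. Most of the genes concerned were chosen or added with these same values known, so it adds no support beyond the limma result. How often the groups lacked overlap among all tested probe sets is not given.

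The gene for another small subunit of that complex, petN, ran from 4.45 through 6.06 to 6.38 in Rep1 and from 7.13 through 7.27 to 9.33 in Rep2, again without overlap. Its mean difference was 1.82 ± 0.26 (SE; adjusted p = 0.0243, limma), and 1.96 with 5 pairs (adjusted p = 0.0213). Of the other 4 tested genes of the complex none passed with 6 or 5 pairs. These were petA and petB, for cytochrome f and cytochrome b6, at 0.09 and 0.07 without arrays 10 and 11, petD at -0.12 and petG at -0.74.

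The ATP synthase makes ATP from the proton gradient across the thylakoid membrane. Its gene atpI, for subunit a of the membrane part, ran from 3.08 through 4.45 to 5.12 in Rep1 and from 5.52 through 5.98 to 6.61 in Rep2. The difference was 1.82 ± 0.18 (SE, n = 6 pairs, adjusted p = 0.00545, limma) and 1.67 with 5 pairs. Its lowest Rep1 signals, 3.08 on array 10 and 3.26 on array 7, were not far above the floor of 2.13 to 2.57, so its size is less certain. The gene atpI was the only one of 6 tested genes of the enzyme to pass. Of the 66 plastid genes, 11 passed as higher with 6 pairs and 16 with 5. The median over the 6 genes of the enzyme was 0.19 with 6 pairs and -0.066 with 5.

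The gene ycf3 encodes an assembly factor of photosystem I. It ran from 4.19 through 4.82 to 5.50 in Rep1 and from 5.69 through 6.40 to 7.92 in Rep2, with no overlap, and the difference was 1.70 ± 0.19 (SE; adjusted p = 0.01, limma). Of 5 tested photosystem I genes 1 passed, beside 11 of the 66 plastid genes. It was psaI, a small subunit, at 0.79 ± 0.13 (SE, adjusted p = 0.0243, limma), with Rep1 at 8.68 to 10.06 and Rep2 at 10.04 to 10.89. With 5 pairs psaI was at 0.65 (adjusted p = 0.0218). The gene psaC, for the subunit that holds the terminal iron-sulfur clusters, differed by 1.28 with 6 pairs and 0.77 with 5 (adjusted p = 0.201 and 0.105, limma). The reaction centre genes differed from each other: psaB was at 0.35 and 0.23, and psaA at -0.07 and -0.95, and none of these values passed (adjusted p = 0.135, 0.198, 0.973 and 0.272). The small subunit gene psaJ was at -0.22 and -0.21 (adjusted p = 0.288 and 0.353).

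Of the 15 photosystem II genes tested, 0 passed with 6 pairs (limma, with 3 higher and 0 lower at an unadjusted p under 0.05). With 5 pairs 1 higher and 1 lower passed. Of all 66 plastid genes, 11 higher and 0 lower passed with 6 pairs, and 16 and 3 with 5. At an unadjusted p under 0.05, 26 of the 66 were higher and 1 lower with 6 pairs. The gene psbA encodes the D1 reaction centre protein, which is damaged by light and replaced. Its difference was the largest of the plastid genes, but it was also among the most variable. Rep1 ran from 5.07 on array 10 through 7.78 to 8.78, and Rep2 from 9.26 through 10.22 to 11.06, so the groups did not overlap. The pairs lay between 0.48 and 5.46, with a mean of 2.70 ± 0.62 (SE; adjusted p = 0.0682, limma) and of 2.15 ± 0.45 with 5 pairs (adjusted p = 0.0521). Without arrays 10 and 11, psbB, for an inner antenna protein, was higher by 1.00 (adjusted p = 0.0491, limma) and psbI, a small subunit, was lower by 0.56 (adjusted p = 0.048); with 6 pairs the values were 1.29 and -0.17 (adjusted p = 0.0695 and 0.813).

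**Figure D3:**
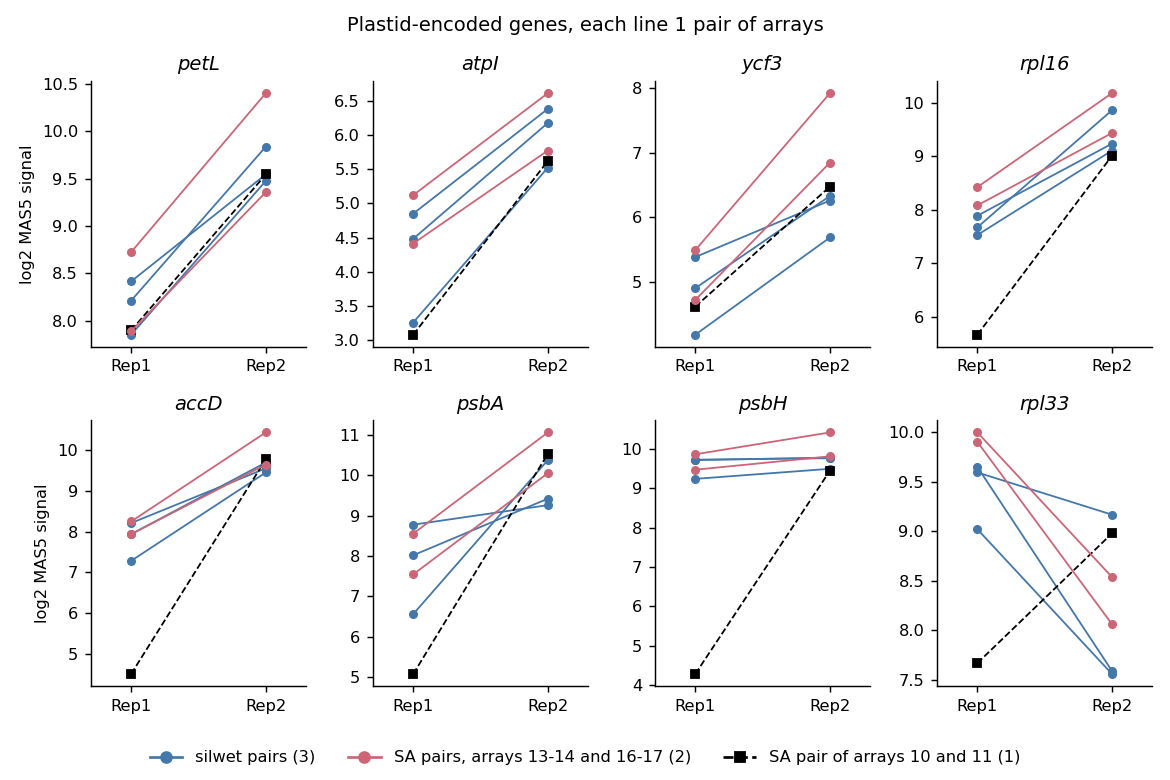
Log2 MAS5 signal of 8 plastid genes on each of the 12 arrays, with 1 line per pair from Rep1 to Rep2; vertical scales differ between panels and do not start at 0. In petL, atpI and ycf3 the 6 lines rise alike, in accD and psbA array 10 is the lowest, in psbH only the pair of arrays 10 and 11 is steep, and in rpl33 the other 5 pairs fall.

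Of 9 tested genes of the NDH complex, which returns electrons from ferredoxin to the plastoquinone pool, 9 had a positive mean with 6 pairs, beside 6847 of all 13652 probe sets, and 1 was called, ndhG at 1.18 ± 0.22 (SE; adjusted p = 0.0341, limma). With 5 pairs 8 had a positive mean and 3 were called, ndhG at 1.16, ndhD at 0.86 and ndhJ at 0.70. Of all 66 plastid genes, 52 had a positive mean and 11 were called higher with 6 pairs. With 5 pairs these were 40 and 16. Of all probe sets, 1.19% were called higher with 6 pairs and 1.68% with 5. The single RuBisCO gene, rbcL, differed by 0.92 and 0.62 (adjusted p = 0.11 and 0.0746, limma).

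The plastid ribosome had 14 tested genes, with a median difference of 0.47 with 6 pairs and -0.026 with 5. Of these, 5 were called higher with 6 pairs, beside 11 of the 66 plastid genes and 1.19% of all probe sets. The largest was rpl16, at 5.67 through 7.78 to 8.43 in Rep1 and 9.01 through 9.34 to 10.18 in Rep2, a difference of 1.93 ± 0.25 (SE; adjusted p = 0.0243, limma). It was 1.64 with 5 pairs, after array 10 with its value of 5.67 was left out. The others were rpl20 at 1.45, rpl14 at 1.37, rps4 at 1.15 and rps15 at 1.07. The same 5 genes were called with 5 pairs, together with 2 that were lower, rpl33 and rps19.

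The large-subunit protein gene rpl33 moved against most plastid genes. It fell in each of the 5 pairs, with single pairs at -0.43 to -2.06, and its mean was -1.45 ± 0.21 (SE, n = 5 pairs; adjusted p = 0.0218, limma). On array 10 it read 7.67, against 9.02 to 10.00 on the other Rep1 arrays, so that pair had a difference of 1.31 and the 6-pair mean was -0.99 (adjusted p = 0.246). For rps19 the difference was negative in 6 of 6 pairs, at -0.60 with 5 pairs and -0.50 with 6 (adjusted p = 0.0312 and 0.0549, limma).

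Of the 3 genes tested for the plastid-encoded polymerase, rpoC2 was called with 5 pairs, at 1.41 ± 0.13 (SE; adjusted p = 0.00258, limma). With array 10, at 2.75, the mean was 1.94 and the adjusted p 0.0682. The same held for accD, which encodes a subunit of the acetyl-CoA carboxylase that starts fatty acid synthesis. Rep1 read 7.28 to 8.25 apart from 4.50 on array 10, and Rep2 read 9.45 to 10.43, with no overlap. The difference was 1.83 ± 0.13 (SE, n = 5 pairs; adjusted p = 0.000697, limma) without that pair and 2.41 ± 0.51 with it (adjusted p = 0.0584).

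Genes next to each other on the plastid genome often differed in their values. In the gene order of the TAIR10.1 annotation, petL at 1.50 without arrays 10 and 11 stood between psbE at -0.27 and petG at -0.74. Likewise atpI at 1.67 stood between atpH at -0.19 and rps2 at -0.11, accD at 1.83 lay next to rbcL at 0.62 and psaI at 0.65, and rpl33 at -1.45 lay next to psaJ at -0.21 and rps18 at -0.03. Called neighbours also occurred, as with ycf3, rps4 and ndhJ at 1.67, 0.92 and 0.70, and with rpl14 and rpl16 at 1.24 and 1.64. Of the 66 genes, 37 were within 0.5 log2 units of 0 with 5 pairs, 12 exceeded 1 and 1 was below -1.

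**Figure D4:**
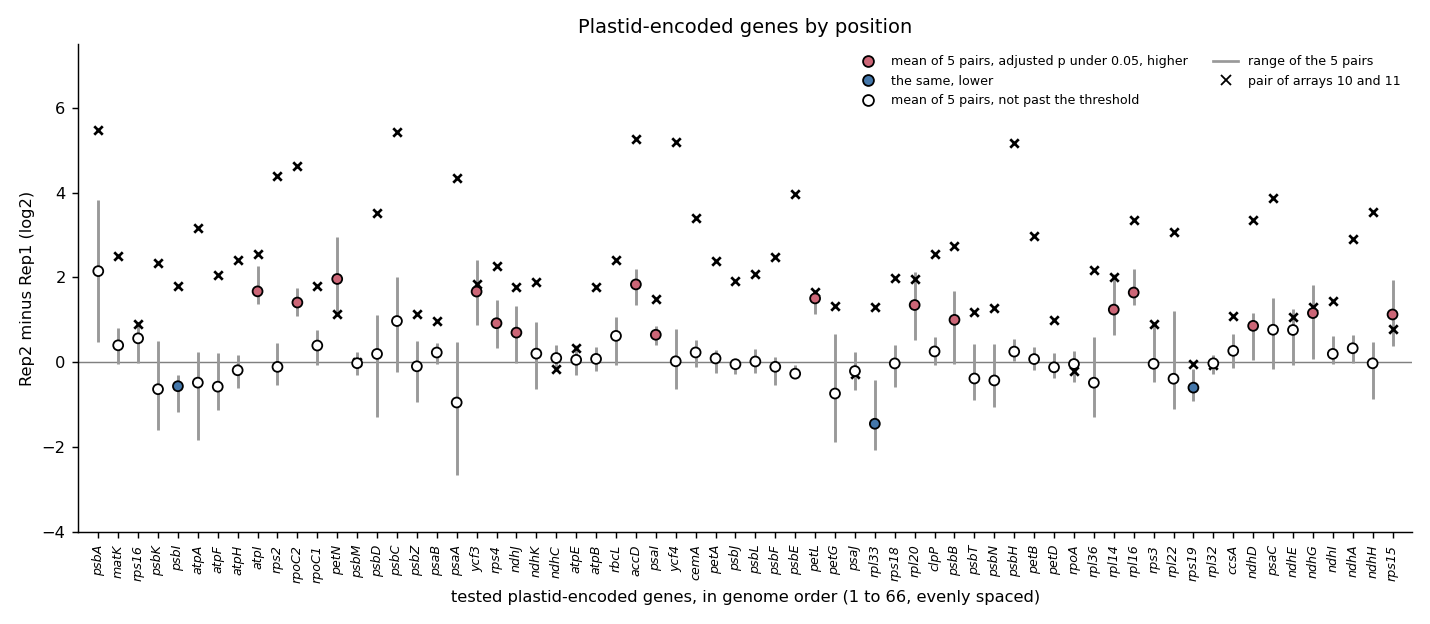
Rep2 minus Rep1 (log2) of the 66 tested plastid genes in genome order, evenly spaced. Circles are means of 5 pairs, filled where the adjusted p was under 0.05, grey lines are the range of the 5 pairs and crosses are the pair of arrays 10 and 11; crosses lie above 2 in 33 genes, while filled circles stand singly or in short runs.

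Nuclear genes for photosynthesis were close to 0. Of a list of 45, 7 had a tested probe set that names 1 gene. With 6 pairs 0 of the 7 passed in either direction (limma; 0 at an unadjusted p under 0.05), and their median difference was 0.01. RCA, the activase of RuBisCO, ran from 11.16 to 11.43 in Rep1 and from 11.19 to 11.48 in Rep2, a difference of -0.0069 ± 0.078 (SE, n = 6 pairs). PRK, phosphoribulokinase of the Calvin cycle, differed by 0.07 ± 0.092 and LHCB4.2, a light-harvesting protein, by -0.15 ± 0.084.

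Single nuclear genes with roles in organelles passed. CCB3, needed to attach a haem to cytochrome b6, ran from 6.06 through 6.66 to 6.77 in Rep1 and from 6.26 through 7.2 to 7.51 in Rep2, a difference of 0.55 ± 0.12 (SE; adjusted p = 0.0435, limma). Cpn60beta2, a subunit of the chloroplast chaperonin, was higher by 0.62 and PDF1A, an organellar peptide deformylase, by 0.48 (adjusted p = 0.0468 and 0.0411, limma). Without arrays 10 and 11, Cpn60beta2 did not pass (adjusted p = 0.058). YLMG1-2, a relative of CCB3, was lower, with a difference of -0.50 ± 0.11 (SE; adjusted p = 0.0428, limma). The 9 tested genes of the OTP and CRR families serve organelle RNA processing and the NDH complex. All 9 had a positive mean with 6 pairs and 8 with 5, beside 6847 and 6812 of all 13652 probe sets. Their median difference with 6 pairs was 0.11. With either number of pairs 0 passed (limma, and 0 at an unadjusted p under 0.05 with 6 pairs).

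Among the nuclear genes lower in Rep2, AT2G35820 had the largest difference of those naming 1 gene. It ran from 5.16 through 5.94 to 6.32 in Rep1 and from 3.75 through 4.15 to 4.71 in Rep2, so the groups did not overlap. The mean was -1.65 ± 0.15 (SE, n = 6 pairs; adjusted p = 0.00449, limma) and -1.75 with 5 pairs. AT2G04460, AT2G41190 and AT5G52390 followed at -1.59, -1.41 and -1.40 (adjusted p = 0.031, 0.045 and 0.0349). These loci carry no symbol in the annotation used.

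A starch-degrading enzyme and a sugar transporter were lower in Rep2. AMY1, an alpha-amylase, ran from 6.39 through 7.14 to 7.46 in Rep1 and from 4.94 through 5.84 to 6.76 in Rep2, where the groups overlapped but every pair was lower in Rep2. Its difference was -1.06 ± 0.17 (SE; adjusted p = 0.0243, limma). TMT1, which carries monosaccharides into the vacuole, read 8.26 through 8.48 to 8.71 in Rep1 and 6.78 through 7.66 to 8.10 in Rep2, without overlap, and its difference was -0.99 ± 0.20 (adjusted p = 0.0418). It was the only one of 9 tested genes of the TMT and SWEET families to pass, beside 1.88% of all probe sets passing as lower. The family median was -0.014. TMT2 differed by -0.49 and SWEET4 by -0.64 (adjusted p = 0.166 and 0.0916, limma).

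Of 27 listed cold, drought and touch genes, 5 had a tested probe set that names 1 gene, all 5 had a negative mean and 2 passed. Of all 13652 probe sets, 6805 had a negative mean and 1.88% passed as lower. The dehydrin gene COR47 ran from 9.99 through 10.25 to 11.32 in Rep1 and from 9.26 through 9.89 to 10.87 in Rep2, a difference of -0.58 ± 0.10 (SE; adjusted p = 0.0298, limma). LTI30, another dehydrin gene, ran from 9.80 through 10.02 to 11.22 and from 8.85 through 9.68 to 9.95, a difference of -0.79 ± 0.18 (adjusted p = 0.0498). In both the groups overlapped, and the highest Rep1 signals were on arrays 7 and 16. COR15A and COR15B, for chloroplast-stroma proteins of cold acclimation, differed by -0.17 and -0.33 (adjusted p = 0.323 and 0.158). XERICO, a RING protein that raises abscisic acid levels, was lower, at -0.70 ± 0.13 (adjusted p = 0.0308), with single pairs at -0.26 to -1.21.

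Of 30 listed clock and light genes, 3 had a tested probe set that names 1 gene, all with a negative mean. Of all 13652 probe sets, 6805 had a negative mean and 1.88% passed as lower. AT4G33980 was called at -0.65 (adjusted p = 0.0459, limma, and 0.0575 with 5 pairs), while COR27 at -0.53 and GI, the clock protein GIGANTEA, at -0.35 were not (adjusted p = 0.0729 and 0.26).

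Hormone genes included GID1A, a gibberellin receptor. Rep1 ran from 6.82 through 7.49 to 7.67 and Rep2 from 6.40 through 6.89 to 7.10, and the difference was -0.54 ± 0.10 (SE; adjusted p = 0.0308, limma). The receptor GID1B was lower in each of the 5 pairs without arrays 10 and 11, at -0.86 (adjusted p = 0.0325), and in that pair was higher by 0.90, so that the 6-pair value was -0.56 (adjusted p = 0.237). GID1C, the third receptor, differed by -0.06 (adjusted p = 0.855). MYC3, a transcription factor of jasmonate signalling, read 6.76 through 7.05 to 7.11 in Rep1 and 6.07 through 6.35 to 6.70 in Rep2, without overlap, at -0.64 ± 0.11 (adjusted p = 0.0298).

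Single genes of protein turnover were lower. The protease gene GAMMA-VPE, for a vacuolar processing enzyme, ran from 10.03 through 10.36 to 10.57 in Rep1 and from 9.54 through 9.78 to 10.00 in Rep2, without overlap, at -0.56 ± 0.094 (SE; adjusted p = 0.0243, limma). SCPL49, a serine carboxypeptidase, differed by -0.44 and APM1, an aminopeptidase, by -0.53 (adjusted p = 0.0428 for each). The 10 tested ATG genes, which serve the building of the autophagosome, were all of the ATG8 family except ATG3. They thus stand for little of the autophagy machinery. All 10 had a negative mean with 6 pairs and 2 passed. Of all 13652 probe sets, 6805 had a negative mean and 1.88% passed as lower. With 5 pairs 9 of the 10 ATG genes had a negative mean and 0 passed. The 2 called with 6 pairs were APG8A (ATG8A) at -0.50 and APG8H (ATG8I) at -0.44, with adjusted p = 0.0622 and 0.0565 (limma) without arrays 10 and 11. ATG3, the enzyme that couples ATG8 to lipid, differed by -0.012.

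Of 11 tested genes of endosomal sorting, 1 was called higher and 2 lower with 6 pairs, beside 1.19% and 1.88% of all probe sets. VPS2.2 ran from 3.86 through 4.38 to 5.01 in Rep1 and from 4.86 through 5.34 to 5.60 in Rep2, with a difference of 0.93 ± 0.19 (SE; adjusted p = 0.0366, limma). SNF7.2 at -0.57 and VPS46.2 at -0.42, which belong to the same membrane-remodelling ESCRT-III machinery, went the other way (adjusted p = 0.0468 and 0.0459). VPS46.2 did not pass with 5 pairs (adjusted p = 0.0602).

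Single genes of other families also passed at the lower side with 6 pairs. They were PUB19, a U-box ubiquitin ligase, at -0.79, PMEPCRF, a pectin methylesterase, at -0.76, TET2, a tetraspanin, at -0.73, the cytochrome P450 gene CYP71B5 at -0.73, the lectin gene EULS3 at -0.78, the copper amine oxidase gene CuAO1 at -0.50, FDH, formate dehydrogenase, at -0.46 and the beta-tubulin gene TUB6 at -0.40. With 5 pairs TUB6 did not pass (adjusted p = 0.0628, limma). In the U-box family 1 of 6 tested genes passed, in the P450 family 1 of 13 and in the tubulin family 1 of 7. Among all probe sets 1.88% passed as lower.

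On the higher side, SKU5, a cell wall protein of directional root growth, ran from 7.13 through 7.70 to 8.34 in Rep1 and from 7.59 through 8.53 to 9.07 in Rep2, a difference of 0.82 ± 0.14 (SE; adjusted p = 0.0243, limma). TBL37, of the trichome birefringence-like family of wall polysaccharide acetylation, ran from 5.23 through 5.47 to 6.06 and from 5.91 through 6.33 to 7.53, a difference of 0.93 ± 0.16 (adjusted p = 0.0253, limma). It was 1 of 13 tested family members to pass, beside 1.19% of all probe sets passing as higher. The chromatin protein gene 3xHMG-box2 did not overlap between groups, at 4.61 to 5.36 in Rep1 and 5.65 to 6.42 in Rep2, and differed by 0.87 (adjusted p = 0.0398). LSM1B, of the complex that starts mRNA decay, did not overlap either, at 6.13 to 6.32 and 6.47 to 7.06, and differed by 0.54 (adjusted p = 0.038).

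Smaller differences past the threshold were those of ARL, a growth regulator, at 0.53, ACA.l at 0.44 and Fes1B, an HSP70 nucleotide exchange factor, at 0.39. With 5 pairs ARL and ACA.l did not pass (adjusted p = 0.0566 and 0.0625, limma). Fes1A, its relative on the heat list, differed by 0.46 (adjusted p = 0.0967, limma). AT2G07741, AT4G24350 and AT5G27330 were higher by 1.46, 1.27 and 1.16 (adjusted p = 0.0243, 0.0351 and 0.0243). The probe set of AT2G07741 is of a type that can bind more than 1 transcript, so that value is uncertain.

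**Figure D5:**
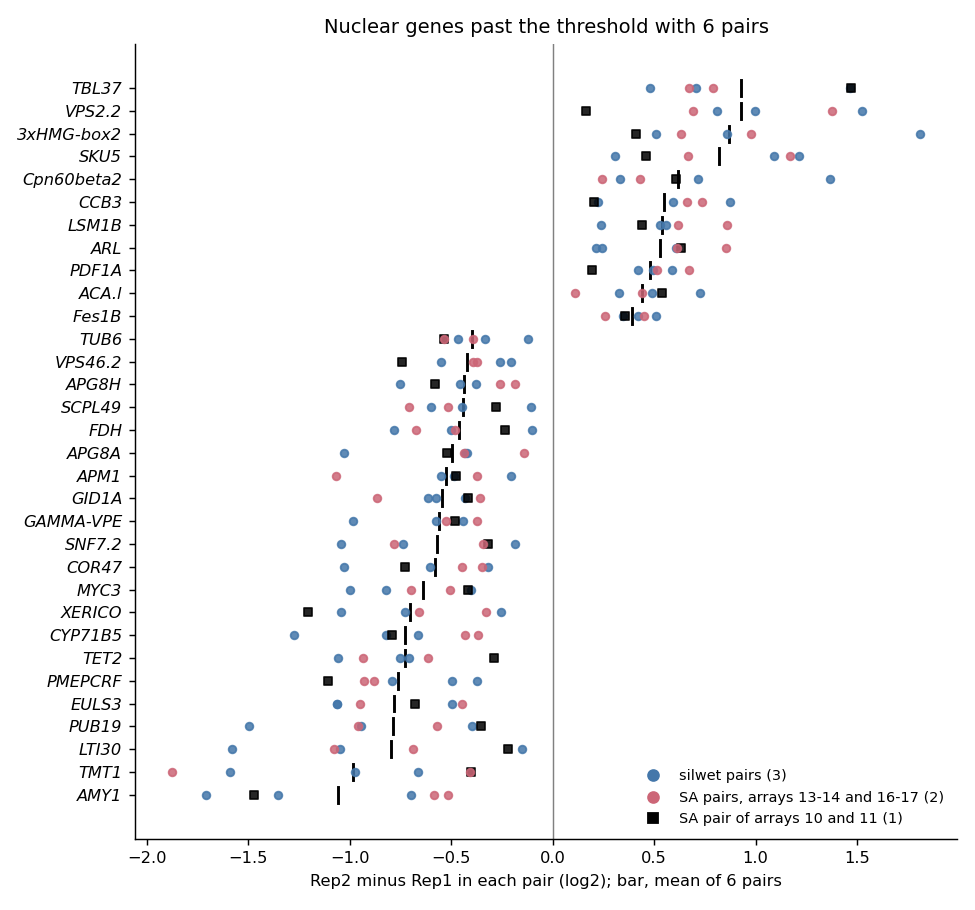
Rep2 minus Rep1 (log2) in each of the 6 pairs for 32 nuclear genes past the threshold with 6 pairs, with bars for the mean; the genes were chosen because they passed. Every point of a gene lies on the same side of 0, and the means run from -1.06 for AMY1 to 0.93 for TBL37.

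Some nuclear genes were also set by the pair with array 10. FZL, which shapes thylakoids, was lower in each of the 5 other pairs, at -0.76 ± 0.16 (SE; adjusted p = 0.034, limma), but higher by 2.34 between arrays 10 and 11, where array 10 read 3.62 and the other Rep1 arrays 6.57 to 7.04. EXPA9, an expansin of wall loosening, was lower by 0.46 to 1.15 in those 5 pairs and higher by 1.05 in the pair with array 10. AT2G43160 and AT4G01290 differed by -2.02 and -1.50 with 5 pairs (adjusted p = 0.0398 and 0.0233, limma) and by -1.32 and -0.95 with 6 (adjusted p = 0.321 and 0.305).

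Markers of other tissues gave few readings. Of 7 root markers 1 had a tested probe set that names 1 gene, PYK10, a beta-glucosidase of root ER bodies, at 5.31 to 6.96 in Rep1 and 6.11 to 8.03 in Rep2, with a difference of 0.72 ± 0.38 (SE; adjusted p = 0.306, limma). Of 5 markers of guard cells, trichomes and phloem 1 had such a probe set, FMA, the guard cell factor FAMA, at 0.28 (adjusted p = 0.26, limma). Of 11 flower and seed markers 0 had one. Of 26 SA-related defence genes 6 had one and 0 passed (limma, and 0 at an unadjusted p under 0.05), with a median difference of -0.0056. Listed genes without one were either under the filter or not matched to a probe set naming 1 gene, so they were not necessarily undetected. AT1G47400 and AT3G28690 differed by 0.38 and -0.19 (adjusted p = 0.573 and 0.4), with 3 of 6 and 2 of 6 pairs higher in Rep2. These loci were followed because earlier work on the same arrays had singled them out.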

How the data were processed

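The deposited file holds intensities, one MAS5 signal per probe set and array on a linear scale; MAS5 is named, per the submitters' processing notes, with no version. On each array the signals have a trimmed mean of 100.0, 2% left off each end. Array medians were 32.5 to 36.3, and read depth does not apply to arrays; the 6 pairs limit the precision. Values under an array's 20th percentile were raised to it, log2 was taken, control probe sets were left out, and 13652 of 22810 probe sets with a mean at or above the 40th percentile were tested in limma 3.58.1 (R 4.3.3) with the triplet as a block, eBayes with trend and robust, and Benjamini-Hochberg adjustment at 0.05. Array measures were tested with exact sign-flip permutation over pairs (scipy 1.17.1). The fit was checked on simulated data with independent errors, no correlation between pairs and no outlying array. It called 76 of 100 probe sets raised 2-fold, 99 of 100 lowered 4-fold and 10 of 13452 left unchanged. The check therefore says nothing on dependence between pairs or on array 10.

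The pairing comes from the title numbers. Deviations from group means correlated at 0.189 to 0.647 within triplets, although for triplets 1 and 6 another triplet correlated more highly (0.35 and 0.474).

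Gene names come from the platform's annotation table, brought up to date through TAIR10.1 gene records, which served for names and gene order only. Of the 13652, 7356 named 1 gene, and the others are not described by gene. Named were up to 15 genes each way with the largest differences and the same sign in all pairs, 10 each way without arrays 10 and 11, up to 4 of each list, and 4 fixed genes; other called genes with a symbol, plastid genes and gene families were added after their values were seen. The comparison, members and lists were chosen with earlier results of these data known, so their counts are descriptions. No sequences are shown. Alternatives changed the floor, filter, normalization, variance model, block and arrays used.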

Additional observations from a re-analysis of the deposited data

Results flagged for a closer look

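In 18 of 108 results examined, the pair of arrays 10 and 11 lay far from the other 5 pairs. The limit used is one that about 1 in 20 independent sets of 6 values pass, whichever value lies far out. The 108 results share the same arrays, and some genes were named because they passed without arrays 10 and 11. The count of 18 is therefore a description and cannot be set against that rate. The array measures concerned were the log2 actin 3′ to 5′ ratio at -5.82, the actin middle to 5′ ratio at -5.2, the GAPDH ratio at -3.42, the 5′ actin signal at 5.72 and the plastid mean at 2.21, where the other pairs had plastid means of 0.20 to 0.54. The plastid genes were accD at 5.27, ycf4 at 5.19, psbH at 5.16, rpoC2 at 4.63, rps2 at 4.38, psbE at 3.96, ndhD at 3.35, petB at 2.98, atpH at 2.41, petA at 2.38 and psbI at 1.79. The nuclear genes were FZL at 2.34 and EXPA9 at 1.05, both negative in the other 5 pairs.

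Outside that pair, AT2G41190 differed by -3.1 between arrays 7 and 8 and by -0.70 to -1.4 in the other pairs. GAMMA-VPE differed by -0.982 between arrays 1 and 2 and by -0.37 to -0.57 in the others, in the same direction.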

How the results depend on the processing

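The counts of probe sets higher and lower in Rep2, 163 and 256, moved with the pairs used and the model. They were 0 and 0 with the silwet pairs only, 3 and 0 with the SA pairs only, 54 and 77 with no filter, 66 and 97 with eBayes without trend and robust, and 306 and 429 with array weights. With all 18 arrays they were 308 and 378. In the fit without the pairing by triplet (no replicate block, treatment as covariate) they were 2 and 1, among them petL and AT2G35820 (adjusted p = 0.0372 for each, limma). Leaving out 1 pair gave 3 to 229 higher and 2 to 365 lower. Under no floor, an added 16, the 60th-percentile filter, quantile normalization, median centring and the random block the counts stayed within 1.5 times. The cause was not tested, beyond fewer arrays in the subsets and more probe sets tested with no filter.

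The SA against silwet comparison called 0 under each of its alternatives (196, 510 and 214 unadjusted without arrays 10 and 11, with no filter and with quantile normalization). Of 99 genes in the text, 53 were called and 0 turned direction while called under any alternative; 8 lost the call without arrays 10 and 11, and 13 gained it. Signals near background limit low genes such as atpI on arrays 7 and 10.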
